A study of Mus musculus with 12 samples.

Results

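*Nr4a1*, *Nr4a2* and *Nr4a3* encode the NR4A group of nuclear receptors, and their mRNA was followed here in mouse bone marrow-derived macrophages (BMDMs) after stimulation of the beta2-adrenergic receptor (B2AR). The members were chosen by gene symbol, matched to Ensembl identifiers with GENCODE M21, and they are 3 of the 53379 genes in the count table. All 3 were found, and all 3 passed the filter on low counts. Bone marrow of 4 C57Bl/6J mice, males according to the methods, was differentiated in medium conditioned by L929 cells. For each mouse there was 1 library of untreated BMDMs, 1 of BMDMs treated with 1 μM fenoterol, a B2AR agonist, for 1 h, and 1 after 4 h, which gave 3 groups of 4 libraries. No group carried a genetic change, and the labels name no vehicle for the untreated cells. According to the methods, cells were stimulated in complete differentiation medium. The comparisons of 1 h and of 4 h with untreated BMDMs share the same 4 untreated libraries.

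NR4A proteins are transcription factors of the nuclear receptor family for which no classical hormone ligand is known, so that their activity is set largely by how much of them a cell makes. They bind DNA as monomers at an element called NBRE and as dimers, and NR4A1 and NR4A2 can also pair with the retinoid X receptor. The genes behave as immediate-early genes in many cell types: a rise in cyclic AMP activates protein kinase A, which phosphorylates CREB, and CREB acts at cyclic AMP response elements (CRE) in their promoters. In macrophages the group is known for transient induction by inflammatory and hormonal signals and for restraint of inflammatory gene expression.

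*Nr4a1* (ENSMUSG00000023034) lies at chr15:101254269-101274795 of GRCm38 on the plus strand, *Nr4a2* (ENSMUSG00000026826) at chr2:57106830-57124003 on the minus strand, and *Nr4a3* (ENSMUSG00000028341) at chr4:48045153-48086447 on the plus strand. No annotated gene overlaps any of them. No stretch of 50 bases, the length of a read, of the *Nr4a1* or *Nr4a2* transcripts is found in a transcript of another gene, and of the 5986 such stretches of *Nr4a3* 3 are shared. Because the members moved together, the 250 bases before each RefSeq gene start (GRCm38.p6) were searched for the CRE half-site TGACG, on both strands (CGTCA), in chr15:101266596-101266845, chr2:57124004-57124253 and chr4:48045055-48045304. The windows begin at the start that RefSeq lists, which for *Nr4a1* and *Nr4a3* lies inside the GENCODE gene. Each member held 4 half-sites. They are shown 5′ to 3′ on the strand of the gene, with the half-site in capitals, named by the distance of its 5′ base from the gene start:
*Nr4a1* at -233: gctccctgCGTCAatggaacc
*Nr4a1* at -213: cccgcgtgCGTCAcgcgcgca
*Nr4a1* at -69: gccgtgtgCGTCAgtggcgcc
*Nr4a1* at -40: tctccatgCGTCAcggagcgc
*Nr4a2* at -200: caggccggCGTCActggcagg
*Nr4a2* at -144: gctgcacgCGTCAcggagccc
*Nr4a2* at -123: ggccgggcTGACGgggccgct
*Nr4a2* at -111: ggggccgcTGACGcgcttggc
*Nr4a3* at -231: gaggagggTGACGtagcgtcc
*Nr4a3* at -213: tcccatgtCGTCAcattgacg
*Nr4a3* at -205: cgtcacatTGACGtctcgcat
*Nr4a3* at -147: ggcataaaTGACGtgccgaga

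Of the 32851 promoter windows of this length in the RefSeq table, 17.8% held at least 1 half-site and 45 (0.137%) held at least 4. The members' windows are rich in G and C, at 74.4% for *Nr4a1*, 80.0% for *Nr4a2* and 63.6% for *Nr4a3*. Among the 6219 windows within that range of G and C content, 0.402% held at least 4. The full CRE, TGACGTCA, which contains 2 overlapping half-sites, was in 1.55% of all windows and in none of the members' windows. The NBRE, AAAGGTCA on either strand, was in 1.34% of all windows and likewise in none of theirs. The windows with at least 4 half-sites belong to 44 genes, of which 38 were tested for expression. Besides the members, 12 of the other 35 (34.3%) were higher at 1 h than in untreated BMDMs in edgeR's quasi-likelihood test, where 10.0% of all genes tested were higher. Most of these 12 rose by less than 2-fold. Of the 7543 genes tested that had 1 window, 28.3% held at least 1 half-site, 7.53% at least 2 and 0.384% at least 4. Among the 207 of them that rose at least 2-fold at 1 h, these shares were 34.8%, 11.1% and 2.42%. The last share is 5 genes, the members included. For the 73 that fell at least 2-fold, the shares were 19.2%, 5.48% and 0%. A match of letters describes the window and not binding of a factor.

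**Figure D1:**
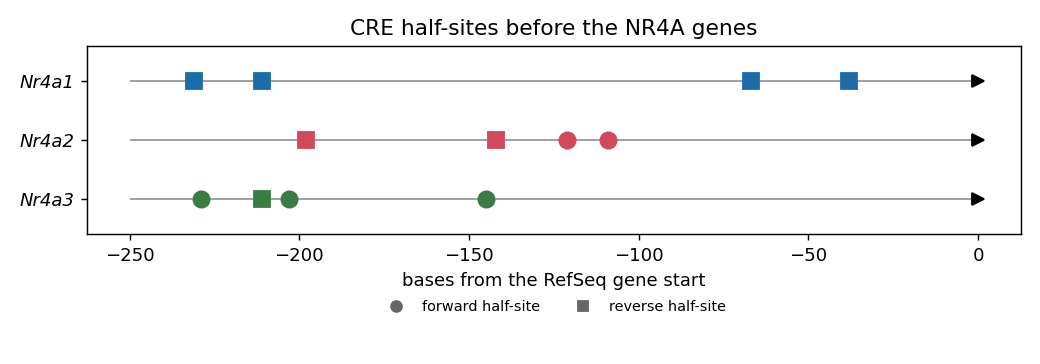
Positions of the CRE half-sites in the 250 bases before the RefSeq gene start of each NR4A gene, in bases from the start; circles mark half-sites read TGACG and squares CGTCA on the strand of the gene, and the arrowhead marks the start. Each gene has 4, and those of *Nr4a1* include the nearest to a start, at -40.

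Total counts were 14580533 to 24153284 per library, and the 12 libraries held a count for 16305 to 17589 genes. The macrophage markers *Adgre1*, *Itgam*, *Csf1r*, *Cd68*, *Mertk*, *Lyz2* and *Fcgr1* all passed the filter, and their summed level in CPM, the count scaled to library depth, was 37480 to 39440 before stimulation, 33700 to 39860 after 1 h and 31930 to 36540 after 4 h. Of these 7 markers 1 was lower at 1 h (10.1% of all genes), and 2 were higher and 4 lower at 4 h (19.7% and 20.4% of all genes). *Lyz2* made up most of the sum. The largest changes at 4 h were those of *Mertk*, at -1.51 on the log2 scale, and *Fcgr1*, at 0.72. The part of these changes in the NR4A values was not tested. The 17 markers of other cells that a marrow culture could hold summed to 17.8 to 42.8 CPM over all libraries, and 1 of them was at 0 throughout. Of these, 5 were tested, and the smallest adjusted p in edgeR's test was 0.133, that of *Zbtb46* at 4 h. In RNA of a whole culture, fewer cells that express a gene and less of its RNA per cell cannot be told apart. Of the 12386 genes tested, 20.1% differed between 1 h and untreated BMDMs with an adjusted p under 0.05, 40.0% between 4 h and untreated, and 38.5% between 4 h and 1 h. All 3 NR4A genes were called in each of these comparisons: higher at 1 h, higher at 4 h, and lower at 4 h than at 1 h, where 10.0%, 19.7% and 19.8% of all genes were called in those directions.

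*Nr4a1*, which encodes Nur77, had the highest level of the 3 before stimulation. Its normalized count, the count scaled to a common library size, was 94.4, 162.2, 135 and 133 in untreated BMDMs of mice 1 to 4. At 1 h it was 4709, 4976, 4288 and 4542, and at 4 h 164, 315, 312 and 261. All libraries at 1 h lay far above all others. The 4 h libraries all lay above the untreated ones, but the lowest of them, that of mouse 1 at 163.8, was next to the highest untreated library, that of mouse 2 at 162.2. The rise at 1 h was 5.16 on the log2 scale (SE 0.18, n = 4, adjusted p = 3.63e-11 by edgeR's quasi-likelihood test) or 35.8-fold, and 30.7-fold to 49.9-fold in the single mice. What remained at 4 h was 1.03 (SE 0.19, adjusted p = 0.000446), and the fold in the single mice was 1.74 to 2.31. From 1 h to 4 h *Nr4a1* fell by 4.13 on the log2 scale (SE 0.17, adjusted p = 2.82e-10).

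*Nr4a2*, which encodes Nurr1 and is best known as a factor of dopaminergic neurons, was close to silent before stimulation. The untreated libraries held 13, 11, 11 and 7 counts in mice 1 to 4, normalized to 11.3, 14.7, 10.6 and 7.54. At 1 h the normalized count was 4375, 4322, 3668 and 3240, and at 4 h 376.5, 529, 476 and 448. None of the groups overlapped, and the lowest library at 4 h lay far above the highest untreated library. The rise at 1 h was 8.47 on the log2 scale (SE 0.18, adjusted p = 3.65e-13 in edgeR's test), which placed *Nr4a2* at rank 3 of the genes tested by p and at rank 4 by fold. Of this rise 5.38 remained at 4 h (SE 0.19, adjusted p = 5.49e-11), a 41.6-fold difference from untreated BMDMs that was 33.5-fold to 59.4-fold in the single mice. Between 1 h and 4 h it fell by 3.09 on the log2 scale (SE 0.12, adjusted p = 1.77e-10).

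*Nr4a3*, which encodes NOR-1, had 4, 4, 1 and 1 counts in the untreated libraries of mice 1 to 4, so that its level there is known only roughly. At 1 h it had 1372, 1324, 1122 and 865 counts, normalized to 1410, 1491, 1101 and 887. At 4 h 27, 22, 20 and 34 counts remained, normalized to 28.2, 23.0, 18.5 and 26.5. The groups did not overlap, and the 4 h libraries lay nearer to the untreated libraries than to those at 1 h on the scale of counts. Over the pooled counts, 4683 at 1 h against 10 in untreated BMDMs, the ratio was 469.6, with a 95% interval of 255 to 979.9 that covers counting error only. The pooled ratio at 4 h was 9.31, with an interval of 4.86 to 20.0. The fit put the rise at 8.81 on the log2 scale (SE 0.29, adjusted p = 1.75e-11 in edgeR's test) for 1 h and at 3.16 (SE 0.46, adjusted p = 6.9e-05) for 4 h. These fitted sizes rest on the 10 untreated counts, and the order of *Nr4a2* and *Nr4a3* by fold at 1 h lies within that counting interval. From 1 h to 4 h, where counts were larger, *Nr4a3* fell by 5.66 on the log2 scale (SE 0.21, adjusted p = 1.77e-10).

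**Figure D2:**
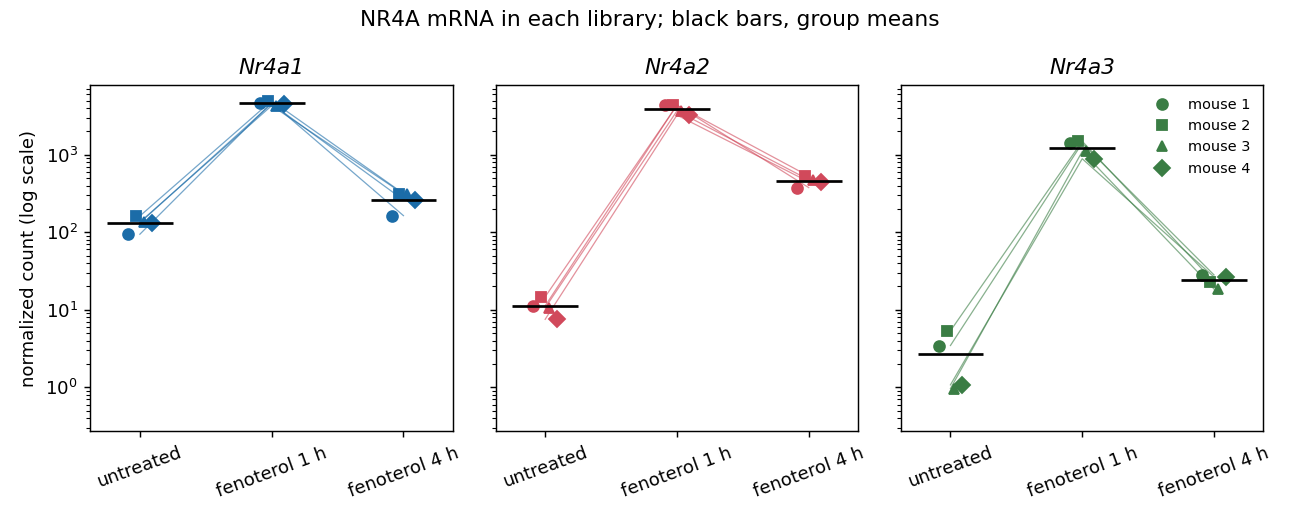
Normalized counts (log axis) of *Nr4a1*, *Nr4a2* and *Nr4a3* in the 12 libraries, by group; each symbol is a mouse, thin lines join libraries of a mouse, and black bars are group means. Of the groups sampled, all 3 genes were highest at 1 h in all 4 mice. They went from group means of 131, 11.04 and 2.72 to 4629, 3901 and 1222, and had fallen to 263, 457 and 24.0 at 4 h.

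To compare the members with each other, counts were divided by exon length and scaled to library depth (RPKM, reads per kilobase at equal depth). In untreated BMDMs the level of *Nr4a1* was 1.90 ± 0.41 RPKM (SD, n = 4), that of *Nr4a2* 0.139 ± 0.037 and that of *Nr4a3*, from 10 counts in all, 0.0231 ± 0.018. Values that rest on this untreated level of *Nr4a3*, its ratios and shares included, are rough. Of the genes tested with a known length, 29.2% lay below *Nr4a1* and 3.31% below *Nr4a2* at this baseline. At 1 h the order was the same but the levels had drawn together, at 67.3 ± 4.20 RPKM for *Nr4a1*, 49.0 ± 6.85 for *Nr4a2* and 10.4 ± 2.38 for *Nr4a3*. *Nr4a1* then stood above 94.9% of the genes tested, *Nr4a2* above 92.6% and *Nr4a3* above 67.2%. At 4 h *Nr4a2* was first, at 5.74 ± 0.80 RPKM, followed by *Nr4a1* at 3.82 ± 1.03 and *Nr4a3* at 0.205 ± 0.036.

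No neighbours in these orders overlapped in their ranges over the 4 mice. The closest were *Nr4a1*, up to 4.58 RPKM, and *Nr4a2*, from 4.73 RPKM, at 4 h. With the longest coding transcript as length these ranges overlapped, at 3.27 to 6.30 for *Nr4a1* and 5.38 to 7.56 for *Nr4a2*, while *Nr4a2* was above *Nr4a1* in 4 of 4 mice. Within the mice, the log2 ratio of *Nr4a1* to *Nr4a2* was 3.79 ± 0.44 (SD, n = 4) before stimulation, 0.47 ± 0.16 at 1 h and -0.62 ± 0.26 at 4 h, and it was below 0 in 4 of 4 mice at 4 h and above 0 in 4 of 4 mice in the other groups. The log2 ratio of *Nr4a2* to *Nr4a3* was 2.92 ± 0.94, 2.25 ± 0.14 and 4.82 ± 0.43 in the same order of groups. With 4 mice an exact two-sided sign-flip permutation test cannot give a p below 0.125, which each of the 9 pairs of members within a group reached, also after adjustment over the 9. The size of the ratios depends on the length assigned to each gene, but the change of a ratio between groups does not.

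The summed level of the 3 genes was 2.07 ± 0.43 RPKM before stimulation, 126.6 ± 12.5 at 1 h and 9.77 ± 1.77 at 4 h (SD, n = 4). *Nr4a1* made up 92.0% ± 2.598 of it before stimulation, 53.3% ± 3.15 at 1 h and 38.6% ± 4.35 at 4 h. The share of *Nr4a2* went the other way, from 6.83% ± 1.87 to 38.6% ± 2.10 and 59.2% ± 3.58. *Nr4a3* held 1.13% ± 0.82, 8.14% ± 1.13 and 2.20% ± 0.80. With all exon bases as length, the share of *Nr4a2* did not overlap between the groups. These shares depend on the length assigned to each gene. With the longest coding transcript as length, the log2 ratio of *Nr4a1* to *Nr4a2* at 4 h was -0.351.

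**Figure D3:**
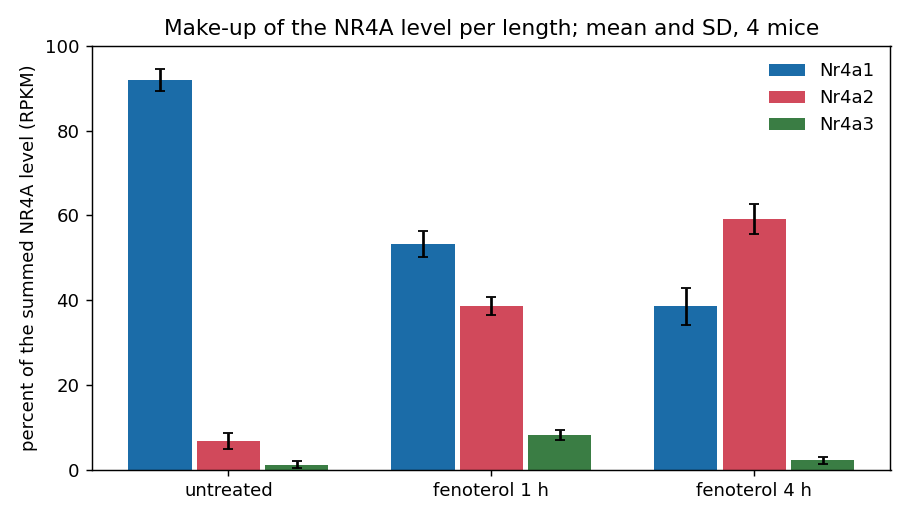
Share of each NR4A gene in their summed level per exon length (RPKM), in percent; bars are means and error bars SD over 4 mice in each group. *Nr4a1* went from 92.0% to 38.6% at 4 h, while *Nr4a2* went from 6.83% to 59.2%. The shares depend on the length assigned to each gene.

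The members also differed in how much of the 1 h level was left at 4 h. No other time after stimulation was sampled, so the 1 h level need not be the peak. At 4 h, *Nr4a2* was at 8.61%, 12.3%, 13.0% and 13.8% of its 1 h level in mice 1 to 4, a mean of 11.9% ± 2.30 (SD). *Nr4a1* was at 3.48%, 6.34%, 7.28% and 5.75%, a mean of 5.71% ± 1.62. *Nr4a3* was at 2.00%, 1.54%, 1.68% and 2.99%, a mean of 2.05% ± 0.65. The ranges did not overlap, and the order *Nr4a2*, *Nr4a1*, *Nr4a3* held in each of the 4 mice. In log2 change from 1 h to 4 h, *Nr4a1* minus *Nr4a2* was -1.09 on average (SD 0.23), *Nr4a1* minus *Nr4a3* was 1.47 (SD 0.70), and *Nr4a2* minus *Nr4a3* was 2.56 (SD 0.47). Each of these 3 differences had the same sign in 4 of 4 mice and p = 0.125 in the exact sign-flip permutation test, the smallest it can give. When the untreated level was subtracted first, 11.7% ± 2.30 of the rise of *Nr4a2* was left, 2.97% ± 1.13 of that of *Nr4a1* and 1.85% ± 0.72 of that of *Nr4a3*. By this measure *Nr4a1* and *Nr4a3* overlapped, and in mouse 1 *Nr4a1* (1.503%) was below *Nr4a3* (1.76%), while *Nr4a2* stayed above both in each mouse.

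Among the 368 genes that were higher at 1 h with an adjusted p under 0.05 and by at least 2-fold, the median gene was at 64.3% of its 1 h level at 4 h. Counted from the lowest such share, *Nr4a3* was number 3, *Nr4a1* number 6 and *Nr4a2* number 12, so all 3 were among the genes with the least left. The genes below *Nr4a3* were *Fosb*, an AP-1 subunit, at 1.25% and *Apold1* at 1.40%, the latter named after its value was seen. These shares are a description, since the genes were picked by their level at 1 h.

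**Figure D4:**
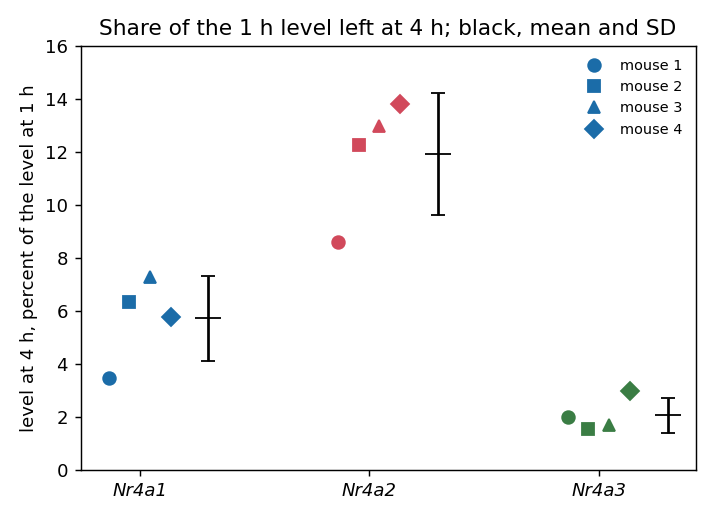
Normalized count at 4 h as a percentage of that at 1 h for each NR4A gene; symbols are mice, and the black bar is the mean with SD (n = 4). *Nr4a2* sits at 8.61% to 13.8%, *Nr4a1* at 3.48% to 7.28% and *Nr4a3* at 1.54% to 2.99%.

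Of 46 other nuclear receptors on the list, 24 did not pass the filter on low counts, and of the 22 tested 2 were higher and 6 lower at 1 h (10.0% and 10.1% of all genes), with a median log2 fold change of -0.15 (-0.00486 over all genes). At 4 h 1 was higher and 9 were lower (19.7% and 20.4% of all genes), with a median of -0.20 (0.0042 over all genes). The shares called, 36.4% at 1 h and 45.5% at 4 h, compare with 20.1% and 40.0% of all genes. *Vdr*, the vitamin D receptor, rose late: its normalized count was 8.19 ± 4.63 (SD, n = 4) before stimulation, 29.4 ± 9.90 after 1 h and 343 ± 73.7 after 4 h. Its log2 fold change at 4 h was 5.39, with SE 0.30 and an adjusted p of 3.32e-09 in edgeR's test. This nearly equals the 5.38 of *Nr4a2* at that time, after 1.85 at 1 h, where *Nr4a2* had 8.47. *Ppard*, a fatty acid-sensing receptor, was also higher at 1 h, by 0.38, and lower than in untreated BMDMs at 4 h, at -0.59.

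The nuclear receptors that fell at 4 h included *Pparg*, a receptor for fatty acid derivatives, with 1077 ± 78.3 normalized counts before stimulation, 1051 ± 43.4 after 1 h and 257 ± 67.2 after 4 h (log2 fold change -2.05, adjusted p = 1.24e-08 in edgeR's test). *Rora* (-0.95) and *Nr1d2* (-0.82), receptors that act in the circadian clock, were also lower at 4 h. *Nr1d1*, the close relative of *Nr1d2*, was lower at 1 h (-0.73) and differed from untreated BMDMs by 0.05 at 4 h (adjusted p = 0.779). *Rara*, a retinoic acid receptor, was lower at 1 h (-0.37).

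All 19 genes listed for the way from protein kinase A to CREB and MEF2 and their regulators were tested. At 1 h 5 were higher and 3 lower, and at 4 h 11 were higher and 3 lower (42.1% and 73.7% called, against 20.1% and 40.0% of all genes). *Creb1* itself had 1068 ± 44.4 normalized counts in untreated BMDMs and 963 ± 42.3 at 1 h and was not called (adjusted p = 0.179 at 1 h and 0.716 at 4 h). *Crem*, which encodes a CREB relative and, from an internal promoter, the repressor ICER, rose by 4.90 at 1 h and stayed at 4.11 at 4 h, and 57.9% of its 1 h level was left. *Sik1*, a kinase that keeps the CREB coactivators of the CRTC family out of the nucleus, rose by 4.87 at 1 h and was at 2.61 at 4 h, with an untreated level that varied from 21.2 to 257 normalized counts between mice. *Hdac5*, a class IIa histone deacetylase that represses MEF2, rose by 1.18 at 1 h and 1.10 at 4 h. *Mef2d*, which encodes a MEF2 factor, rose by 0.71 at 1 h, with an adjusted p of 2.05e-07 in edgeR's test, and stood at 0.55 at 4 h, and *Crtc3*, a CREB coactivator, was higher by 1.19 at 4 h.

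Of 17 partners and coregulators on the list 15 were tested, and 4 were lower at 1 h and 6 at 4 h, as were 10.1% and 20.4% of all genes (26.7% and 40.0% called, against 20.1% and 40.0% of all genes). *Rxra*, a retinoid X receptor, had 3034 ± 209 normalized counts in untreated BMDMs and 2164 ± 237 at 4 h (log2 fold change -0.49, adjusted p = 0.000336 in edgeR's test), and its change at 1 h of -0.24 was called only in some fits (adjusted p = 0.0639, and 0.0104 with the mouse as a block). *Rxrb*, another retinoid X receptor, was lower at 1 h, at -0.34. The coactivator gene *Ncoa3* was lower, at -0.52 after 1 h and -0.96 after 4 h, as was *Ppargc1b*, another coactivator, at -1.12 after 4 h. The corepressor genes *Rcor2* (-1.26 at 1 h and -0.81 at 4 h) and *Rcor3* (-0.33 at 1 h) were also lower. *Rcor2* started from 28.2 normalized counts, and its call at 4 h was lost without the untreated library of mouse 2 or with no filter on low counts (adjusted p up to 0.0724). *Rxra* and *Rxrb* are on the list of nuclear receptors as well.

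Of 20 genes listed as NR4A targets reported in other settings, mostly other tissues, 10 passed the filter, and 3 of them (30.0%) were called at each time, where 20.1% and 40.0% of all genes were. The median log2 fold change was 0.16 at 1 h and 0.04 at 4 h. *Bcl2l11*, which encodes the death-promoting protein BIM, was higher at both times, by 0.98 at 1 h and 0.56 at 4 h on the log2 scale (adjusted p = 7.23e-07 and 8.72e-05 in edgeR's test). *Gpr65*, a proton-sensing receptor, was higher at 1 h by 0.61, and *Cd36*, a fatty acid transporter, by 0.37. At 4 h *Pygm*, a glycogen phosphorylase, was higher by 0.90 from 13.5 normalized counts, and the glycolytic gene *Eno3* was lower, at -0.68. *Ikbke*, a kinase gene reported as a Nur77 target in macrophages, was not called, with log2 fold changes of -0.13 and -0.17 (adjusted p = 0.368 and 0.145). The call of *Cd36* was lost without the untreated library of mouse 2 or 4, without the 1 h library of mouse 1 or 3, or with scaling to library size only (adjusted p up to 0.0905). That of *Pygm* was lost without the untreated library of mouse 1 or 4, without the 4 h library of mouse 2, or with no filter on low counts (adjusted p up to 0.0642).

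Most immediate-early genes were called at 1 h. Of 24 listed, 23 were tested, and at 1 h 16 were higher and 5 lower (91.3% called, against 20.1% of all genes), 13 and 2 of them by at least 2-fold. At 4 h 10 were higher and 8 lower (78.3% called, against 40.0% of all genes), and 19 were lower at 4 h than at 1 h, as were 19.8% of all genes. The largest rises at 1 h were those of *Fosb* (log2 fold change 9.71), the cyclooxygenase gene *Ptgs2* (7.30), the AP-1 gene *Fosl2* (5.504) and the MAP kinase phosphatase gene *Dusp1* (4.18). At 4 h *Fosb* and *Ptgs2* were at 1.25% and 5.25% of their 1 h level, near *Nr4a3* and *Nr4a1*. *Fosl2* kept 33.2% and *Dusp1* 20.4%, more than any NR4A gene. The early growth response genes were not among the risers: *Egr2* was lower at both times (-3.50 and -2.93), and *Egr1* had a log2 fold change of 0.02 at 1 h (adjusted p = 0.978) and -1.22 at 4 h. *Egr3* had 2 to 36 counts in the untreated libraries and at most 1 at 4 h. Its untreated mean of 17.0 normalized counts (SD 12.0) was 5.98 times a floor of 3 counts per library at 4 h. That ratio leaves out the spread of the untreated libraries, the lowest of which held 2 counts.

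**Figure D5:**
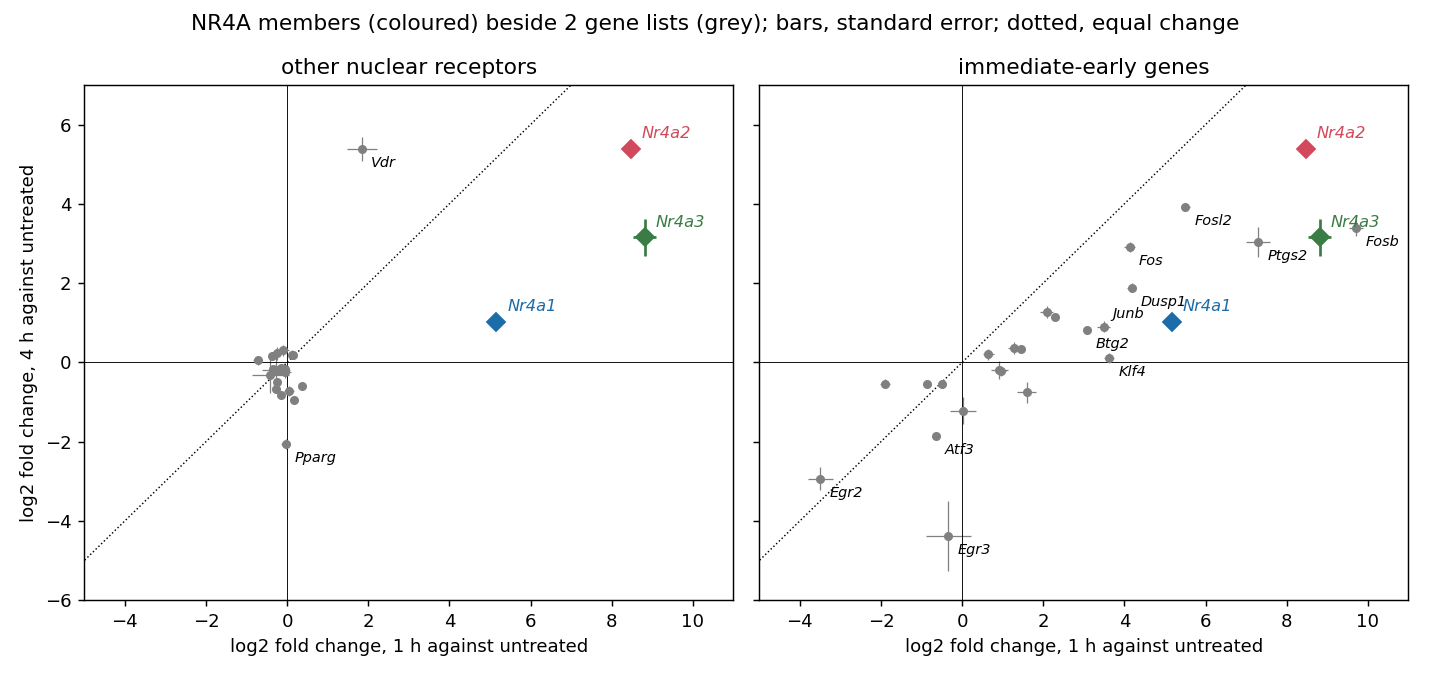
Log2 fold change at 1 h (horizontal) and at 4 h (vertical), each against the same untreated libraries, for the NR4A genes (coloured diamonds) beside the 22 other nuclear receptors tested (left, grey) and the 23 immediate-early genes tested (right, grey), with standard errors; on the dotted line the changes are equal. The NR4A genes lie below the line at 5.16 to 8.81 on the horizontal axis, *Vdr* lies above it, and *Fosb* (9.71) is beside *Nr4a3*.

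The genes whose log2 CPM followed each member most closely over the 12 libraries were taken by Pearson's r, as a description in which 3 group means set most of the value. For *Nr4a1* they were *Cd83*, *Pim3*, *Zfp36*, *Btg2* and *Ccrl2* (r = 0.990 to 0.996), with log2 fold changes of 1.45 to 3.08 at 1 h and 0.34 to 0.81 at 4 h. For *Nr4a2* they were *Nuak2*, *Pde4b*, *Plk3*, *Ets2* and *Fos* (r = 0.995 to 0.997), with 1.96 to 4.13 at 1 h and 1.17 to 2.90 at 4 h. For *Nr4a3* they were *Arid5a*, *Fosb*, *Pxdc1*, *Slc25a33* and *Nfkbie* (r = 0.993 to 0.994), with 1.67 to 9.71 at 1 h and 0.48 to 3.40 at 4 h. Between the members, r was 0.976 for *Nr4a1* and *Nr4a3*, 0.935 for *Nr4a2* and *Nr4a3*, and 0.879 for *Nr4a1* and *Nr4a2*.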

How the data were processed

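Reads of 50 bases, single-end and from a strand-specific kit, were mapped by the authors to GRCm38 with TopHat2 2.0.11 and counted per gene with HTSeq 0.8.0, per the submitters' processing notes. The deposited table used here holds whole-number counts, not normalized. Neither the annotation release nor the strand setting of HTSeq is stated: both are not given in the sources used here. Of 53379 genes listed, 53274 were matched to GENCODE M21 for symbols, coordinates and exon lengths. The members, the gene lists and the tests were chosen with earlier results of these data known.

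Fold changes and p-values were computed from the counts with edgeR 4.0.16 in R 4.3.3: filterByExpr on the 3 groups, TMM scaling, and the quasi-likelihood test in 1 fit of the 3 group means to all 12 libraries, without covariates. The Benjamini-Hochberg adjustment ran over the 12386 genes tested, with a threshold of 0.05. The study's methods name limma on vsn-scaled counts, and limma-voom (limma 3.58.1) is among the alternatives with DESeq2 1.42.0. The standard error is the log2 fold change divided by the square root of the F statistic. RPKM used all exon bases of a gene. Named from each list were up to 4 genes per time with the largest called change in the same direction in all 4 mice. For each member, the 5 genes of highest r were named. *Creb1*, *Ikbke*, *Egr1*, *Egr2*, *Zbtb46*, *Apold1* and the changes of *Mertk* and *Fcgr1* were added after their values were seen. A mouse number in the labels links 3 libraries: over all genes their deviations from the group means correlated at 0.290 to 0.561, against -0.304 to 0.0912 for different mice. Replicates differed by more than counting error (chi-square per degree of freedom 9.29 to 19.4). The fits were tested on simulated counts. The depth of 14580533 to 24153284 counts per library left 10 counts of *Nr4a3* in all untreated libraries together. Figures were drawn with matplotlib 3.10.9. Promoter sequences were taken from RefSeq (GRCm38.p6). 1 listed gene is not reported here and was left out of its list.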

Additional observations from a re-analysis of the deposited data

Results flagged for a closer look

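Of 135 sets of 4 libraries, 1 set for each group and each of the 45 genes named by the rule, 3 held a library far from the other three by Dixon's criterion, where chance gives about 1 in 20. *Vdr* in the untreated library of mouse 4 stood at 15.1 normalized counts while the remaining mice had 5.2 to 6.7. *Rora* at 1 h had 543 in mouse 3 against 603 to 604, and *Rora* at 4 h had 325 in mouse 4 against 250 to 256.

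The response at 4 h differed from that at 1 h for 41 of these 45 genes, 36 of them lower and 5 higher at 4 h, in the direct test of 4 h against 1 h in the same edgeR fit (largest adjusted p 0.0332). Over all genes tested 38.5% differed, 19.8% lower and 18.7% higher. Most of the 45 were named for large changes or for following the NR4A genes in these libraries, so the tally describes that choice, and genes added after their values were seen are not in it. The log2 differences of the NR4A genes were *Nr4a1* -4.13, *Nr4a2* -3.09 and *Nr4a3* -5.66. Higher at 4 h were *Vdr* 3.54, *Nr1d1* 0.776, *Rara* 0.538, *Crtc3* 0.858 and *Pygm* 1.16. Lower among the other nuclear receptors and their partners were *Ppard* -0.97, *Pparg* -2.02, *Rora* -1.12, *Nr1d2* -0.674, *Ncoa3* -0.439, *Ppargc1b* -1.11 and *Rxra* -0.248, whose call was lost under 6 alternatives (adjusted p up to 0.134). Lower among CREB, MEF2 and their regulators were *Crem* -0.79, *Sik1* -2.27 and *Mef2d* -0.166, the last lost under 6 alternatives (adjusted p up to 0.293). Lower among reported targets were *Bcl2l11* -0.419, *Gpr65* -0.796, *Cd36* -0.459 and *Eno3* -0.392, the last lost under 5 alternatives (adjusted p up to 0.135). The immediate-early genes gave *Fosb* -6.32, *Ptgs2* -4.26, *Fosl2* -1.59, *Dusp1* -2.29 and *Egr3* -4.04. The fitted value of *Egr3* depends on the prior count, since it had at most 1 count at 4 h. Its 1 h mean of 13.4 normalized counts (SD 7.50) was 4.71 times a floor of 3 counts per library at 4 h. That ratio leaves out the spread at 1 h. The genes that most resembled *Nr4a1* gave *Cd83* -2.09, *Pim3* -1.84, *Zfp36* -1.11, *Btg2* -2.26 and *Ccrl2* -2.43, those that resembled *Nr4a2* *Nuak2* -0.789, *Pde4b* -1.32, *Plk3* -1.05, *Ets2* -1.46 and *Fos* -1.23, and those that resembled *Nr4a3* *Arid5a* -1.29, *Pxdc1* -3.08, *Slc25a33* -3.19 and *Nfkbie* -1.19.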

How the results depend on the processing

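The 9 comparisons of the NR4A genes kept their direction and their call under all 19 alternatives. At 1 h the log2 fold change ranged over 5.02 to 5.27 for *Nr4a1*, 8.34 to 8.60 for *Nr4a2* and 8.53 to 9.22 for *Nr4a3*, and at 4 h over 0.887 to 1.19, 5.23 to 5.51 and 2.86 to 3.57, with the largest adjusted p at 0.0139, for *Nr4a3* at 4 h in limma-voom. With the mouse as a replicate block the changes at 1 h were 5.17, 8.46 and 8.81, and among the 45 genes named by the rule the block changed no call other than that of *Rxra* at 1 h. With scaling to library size only, the median of all genes between 4 h and 1 h was 0.1, 7 partners and coregulators in place of 4 were called between these times, and *Hdac5* turned to 0.0117. With lengths taken from the longest coding transcript, which was chosen after seeing the data, log2 ratios were 0.739 for *Nr4a1* to *Nr4a2* and 3.11 for *Nr4a1* to *Nr4a3* at 1 h, and -0.351 for *Nr4a1* to *Nr4a2* at 4 h. In limma-voom 2 uncalled changes at 1 h turned to 0.00382 (*Ppargc1b*) and 0.00817 (*Egr3*). With a library left out, uncalled values that changed sign were those at 1 h of *Pparg* (-0.0625 to 0.0187), *Ppargc1b* (-0.149 to 0.241) and *Egr3* (-0.723 to 0.183), and that of *Rcor3* between 4 h and 1 h (-0.00651 to 0.09). The cause was not tested. Of the other values of the 45 genes, 28 lost and 10 gained a call, the losses being 6 each for *Mef2d* and *Rxra* and 5 for *Eno3* between 4 h and 1 h, 5 for *Cd36* at 1 h, and 4 for *Pygm* and 2 for *Rcor2* at 4 h. Depth limited *Nr4a3* before stimulation, with 10 counts in all.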
